A study of Rattus norvegicus with 8 samples.

Results

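The genes described here are targets of the tumour suppressor p53 and brakes of the cell division cycle, measured in cultured alveolar type II (ATII) cells of the rat, which line the air spaces of the lung and make surfactant. The set comprised 9 genes, Cdkn1a, Cdkn1b, Cdkn2b, Mdm2, Ccng1, Pmaip1, Bbc3, Bax and Gdf15, and a gene was taken as measured where a probe set was annotated with its symbol alone. This gave 7 of the 9 genes, with 1 probe set each, out of 18166 genes measured in all. The 2 probe sets annotated with Bax also carried a second symbol and none was annotated with Bbc3, so neither gene is given a value.

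p53 is a transcription factor that accumulates after DNA damage and other stresses and switches on genes that halt division or trigger apoptosis. Cdkn1a encodes p21, which binds and blocks cyclin-dependent kinases (CDKs) and is the best-known mediator of the p53 arrest, and Mdm2 encodes the ubiquitin ligase that degrades p53 and closes a negative feedback loop. The arrest can also be imposed without p53 by the other CDK inhibitors, of which Cdkn1b encodes p27 and Cdkn2b encodes p15, an inhibitor of CDK4 and CDK6 that is induced by TGF-beta in many epithelia. In the mouse lung, p53 activity and Cdkn1a are known as markers of the transitional state through which ATII cells pass on the way to type I cells.

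Each of 4 male Sprague Dawley rats gave 1 well of ATII cells with an adenovirus carrying green fluorescent protein (AdGFP, 4 wells) and 1 well with an adenovirus for HIF1a in a constitutively active mutant form (AdHIF1a, 4 wells), HIF1a being the subunit of hypoxia-inducible factor 1 that oxygen controls. Freshly isolated cells stood with virus for 3 h (multiplicity of infection 20, 2% fetal bovine serum), were plated on 80% rat tail collagen and 20% Matrigel with 5% rat serum, and were harvested 24 h later. The control wells therefore also carried an adenovirus, and no well without virus was analysed here. Each rat has its own extraction day, so rat and day cannot be told apart, whereas the difference between the 2 wells of a rat leaves both out.

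RNA was hybridised to 8 Affymetrix arrays, and all levels below are deposited log2 signals of a probe set. A difference is the AdHIF1a well less the AdGFP well of the same rat, in log2 units, ± the moderated standard error (SE) from a paired limma fit (4 rats), and a gene was called when its Benjamini-Hochberg adjusted p over all 18166 genes was under 0.05. Array medians ran from 5.00 to 5.20, and signals below about this level are called near the floor here, and folds there are understated. Of all genes, 5.68% were called higher and 7.77% lower, together 13.4%, and in 22.5% the 4 AdHIF1a wells and the 4 AdGFP wells did not overlap. These shares include dim genes, with a median level of 6.27 over all genes and 9.29 over the 7 measured genes of the set. With a filter at the median signal, 1343 of 11343 genes were higher and 1859 lower. The ATII genes Sftpc, Lamp3 and Sftpb, 3 of the 9 measured, were highly expressed in both groups (Sftpc at 12.34 and 12.62), though Lamp3 was called lower. The club cell gene Scgb1a1 was also high, at 12.65 in the AdGFP wells, and Cd68, a macrophage gene, gave 8.91 there. Hif1a was lower by 0.48 ± 0.08 on its rat probe set in the wells labelled AdHIF1a (adjusted p = 0.0217 in limma). The call was lost without rat 2, 3 or 4. Loss of a call with a rat left out was common. Of the 2443 called genes, 1720, 559, 1092 and 625 stayed called in the same direction without rats 1 to 4. Neither the transgene's species nor the probe sequences are known here, so Hif1a is no check of the labels.

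The CDK inhibitor genes did not move together. Cdkn1a rose 1.68-fold and Cdkn1b rose 2.18-fold in the AdHIF1a wells, while Cdkn2b fell 3.66-fold. Of the 7 measured genes of the set, 3 were called higher and 1 lower, beside 5.68% and 7.77% of all genes, and 5 of 7 had groups that did not overlap, beside 22.5% of all genes. The median difference of the 7 was 0.50, against -0.005 for all genes. The set was put together with earlier results of these arrays known, including the rise of Cdkn1a and Mdm2, so its counts are a description and not independent evidence.

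**Figure D1:**
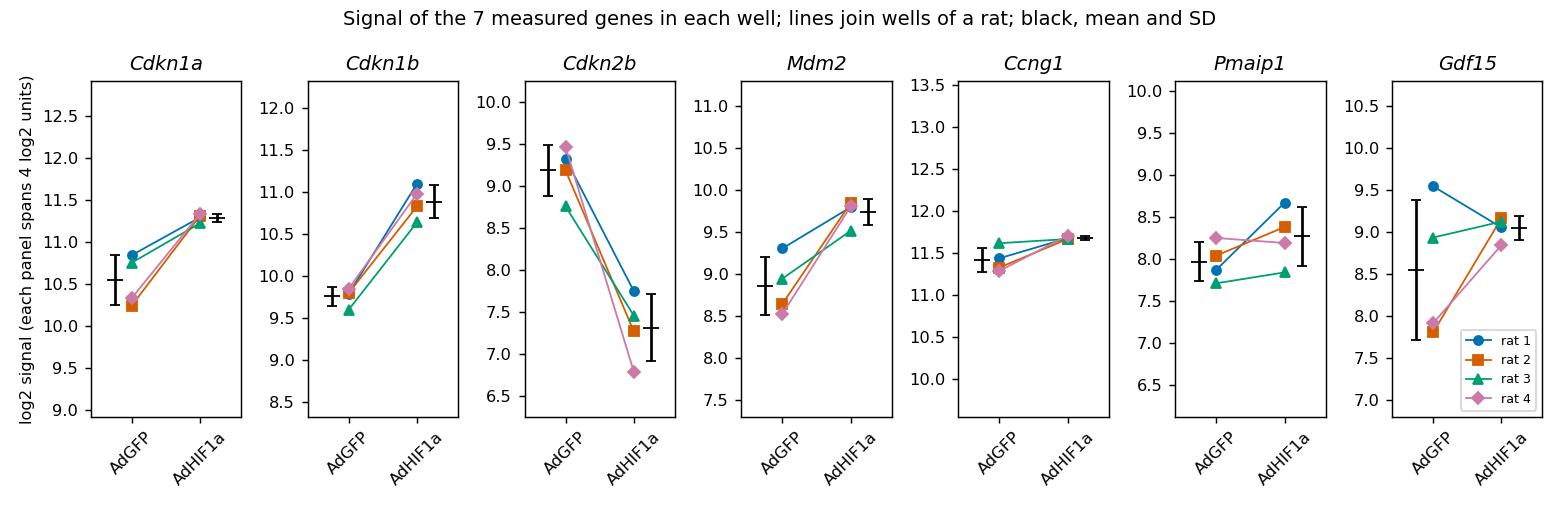
Log2 signal of the 7 measured genes (vertical axis, 4 log2 units in every panel) in the AdGFP and the AdHIF1a well of each rat (horizontal axis). Lines join the 2 wells of a rat and the black bars give the mean and SD of 4 wells. Cdkn1a, Cdkn1b and Mdm2 go up and Cdkn2b goes down in all 4 rats, whereas the line of Gdf15 falls in rat 1 and rises in the other rats, and that of Pmaip1 falls slightly in rat 4.

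The AdGFP wells of Cdkn1a gave 10.84, 10.24, 10.75 and 10.33 in rats 1 to 4, and the AdHIF1a wells 11.29, 11.31, 11.22 and 11.33. Every AdHIF1a well lay above every AdGFP well. The AdGFP wells of rats 2 and 4 were the low ones, and the AdHIF1a wells were nearly equal. The means were 10.54 ± 0.30 and 11.29 ± 0.05 (SD, 4 rats), and they differed by 0.75 ± 0.14 (1.68-fold, 95% interval 1.31 to 2.16, adjusted p = 0.0277). The difference was 0.45, 1.07, 0.47 and 1.0 in rats 1 to 4. Leaving out a rat gave an adjusted p of 0.118 (rat 2 left out), 0.0645 (rat 3) and 0.127 (rat 4), which lost the call, and of 0.0409 (rat 1), which kept it.

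The stretch upstream of Cdkn1a is shown because it holds letters close to the sequence that p53 recognises, and those of Ccng1 and Mdm2 are shown for comparison. The windows are the 250 bases before the gene start listed by RefSeq (rat build GRCr8), read 5′ to 3′ on the strand of the gene, at chr20:7150682-7150931 (plus strand) for Cdkn1a, chr10:25684877-25685126 (minus strand) for Ccng1 and chr7:55200792-55201041 (minus strand) for Mdm2. Capitals mark a p53 response element, that is 2 abutting p53 half-sites over 20 bases with at most 1 mismatch, and the HIF core GCGTG.
Cdkn1a: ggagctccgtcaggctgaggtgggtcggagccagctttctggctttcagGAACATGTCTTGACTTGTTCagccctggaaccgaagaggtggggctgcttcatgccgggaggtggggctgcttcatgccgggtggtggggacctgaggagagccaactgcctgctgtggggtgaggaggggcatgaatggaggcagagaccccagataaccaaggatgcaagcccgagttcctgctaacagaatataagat
Ccng1: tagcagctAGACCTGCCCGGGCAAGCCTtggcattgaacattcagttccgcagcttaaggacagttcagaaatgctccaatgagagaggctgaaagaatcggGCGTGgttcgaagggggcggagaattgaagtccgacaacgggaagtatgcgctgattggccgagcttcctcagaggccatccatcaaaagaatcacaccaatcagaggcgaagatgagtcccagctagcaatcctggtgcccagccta
Mdm2: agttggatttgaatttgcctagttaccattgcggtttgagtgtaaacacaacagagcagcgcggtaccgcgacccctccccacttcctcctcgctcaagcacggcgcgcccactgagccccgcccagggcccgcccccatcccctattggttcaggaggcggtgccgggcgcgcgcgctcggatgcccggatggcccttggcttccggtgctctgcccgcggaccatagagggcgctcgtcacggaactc

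Each of the Cdkn1a and Ccng1 windows held 1 such p53 element with 1 mismatch, starting 201 and 242 bases before the gene start. A p53 element, with up to 13 bases allowed between the half-sites, was found in 0.427% of the 33469 windows of the same length in the table, and a single half-site without mismatch in 6.64%. No p53 half-site was found in the windows of Mdm2, Cdkn1b, Cdkn2b, Pmaip1 or Gdf15, which says only that these letters are not in this window. The p53-responsive promoter of Mdm2 is known in mouse and human to lie inside the gene, beyond such a window. The HIF core, ACGTG or GCGTG on either strand, was found in 36.7% of all windows, once each in those of Ccng1 and Cdkn2b, and not in that of Cdkn1a, Cdkn1b or Mdm2. The gene with a p53 element and the smaller difference was Ccng1 (0.26), and Cdkn1a differed by 0.75. A match is a description of the letters and not of binding.

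For Cdkn1b the controls of rats 1 to 4 gave 9.79, 9.80, 9.60 and 9.85, against 11.10, 10.83, 10.64 and 10.98 with AdHIF1a. The groups did not overlap, and the rats differed little from each other in either. Its difference of 1.13 ± 0.09 (2.18-fold, 95% interval 1.87 to 2.56, adjusted p = 0.00329) had the smallest adjusted p of the 7 genes, and it ranged only from 1.03 to 1.31 over the rats. It was the only one of the 4 called genes of the set to be called without any one of the rats, at adjusted p from 0.0128 to 0.0283.

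Cdkn2b moved the other way, and by the largest step of the 7 genes. The AdGFP wells gave 9.33, 9.19, 8.76 and 9.47 in rats 1 to 4 and the AdHIF1a wells 7.75, 7.27, 7.46 and 6.79. All AdHIF1a wells were below all AdGFP wells, with the lowest signal in rat 4. The difference was -1.87 ± 0.23 (3.66-fold lower, 95% interval 2.45 to 5.46, adjusted p = 0.00863), the 124th largest of 18166 by size. The final mean of 7.32 ± 0.40 (SD) was above the array medians. Without rat 2 the adjusted p was 0.0526.

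The other CDK inhibitors measured were Cdkn1c, Cdkn2a and Cdkn2c, of which limma called 0 of 3, beside 5.68% higher and 7.77% lower of all genes. Of the 3, 1, Cdkn1c, had an unadjusted p under 0.05, as did at least 4572 of all 18166 genes. Cdkn1c, which encodes p57, differed by -0.33 ± 0.11 from a low signal of 6.06 (adjusted p = 0.135, and 0.0468 with quantile normalization). Cdkn2a, which shares its locus with Cdkn2b and encodes p16 and the p53 activator ARF, was at the floor in both groups, at 3.76 ± 0.12 and 3.55 ± 0.13 (SD), and differed by -0.21 ± 0.12 (adjusted p = 0.320). Cdkn2c, which encodes p18, differed by -0.21 ± 0.15 (adjusted p = 0.447). Its signals of 5.42 in the AdGFP and 5.21 in the AdHIF1a wells were just above the array medians.

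For Mdm2 the controls of rats 1 to 4 gave 9.30, 8.64, 8.94 and 8.52, against 9.79, 9.84, 9.51 and 9.80 with AdHIF1a. The groups did not overlap, and again the AdGFP wells of rats 2 and 4 were lowest. The means were 8.85 ± 0.35 and 9.74 ± 0.15 (SD), and they differed by 0.89 ± 0.17 (1.85-fold, 95% interval 1.38 to 2.48, adjusted p = 0.0271). The difference was 0.49, 1.20, 0.57 and 1.28 in rats 1 to 4, in nearly the same proportions as that of Cdkn1a. It was no longer called without rat 2, at an adjusted p of 0.120, nor without rat 3 (0.0659) or rat 4 (0.114).

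Among the p53 target genes of the set beyond Cdkn1a and Mdm2, limma called 0 of the 3 measured, beside 5.68% higher and 7.77% lower of all genes. Of the 3, 1, Ccng1, had an unadjusted p under 0.05, as did at least 4572 of all 18166 genes. Ccng1, which encodes cyclin G1, a p53-induced regulator that takes part in the Mdm2 loop, had nearly level AdHIF1a wells. Its AdGFP wells gave 11.44, 11.33, 11.62 and 11.29 in rats 1 to 4 and its AdHIF1a wells 11.68, 11.67, 11.67 and 11.71. The groups did not overlap, but the highest AdGFP well lay only just below the lowest AdHIF1a well. The difference was 0.26 ± 0.10 (1.20-fold, 95% interval 1.01 to 1.42, adjusted p = 0.153), positive in 4 of 4 rats and smallest in rat 3 (0.05).

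Pmaip1, which encodes the pro-apoptotic BH3-only protein Noxa, gave 7.87, 8.04, 7.71 and 8.25 in the AdGFP wells and 8.67, 8.38, 7.84 and 8.19 in the AdHIF1a wells of rats 1 to 4. The groups overlapped, and the differences ran from 0.80 in rat 1 to -0.06 in rat 4. The mean difference was 0.30 ± 0.16 (95% interval -0.09 to 0.69, adjusted p = 0.286), and without rat 1 it was 0.14.

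Gdf15, a secreted stress cytokine that both p53 and the integrated stress response induce, varied most between rats. The AdGFP wells gave 9.54, 7.80, 8.93 and 7.91 in rats 1 to 4, and the AdHIF1a wells 9.05, 9.16, 9.12 and 8.84. The groups overlapped, with the AdGFP well of rat 1 above all AdHIF1a wells and that of rat 3 within their range. The difference was -0.49, 1.36, 0.19 and 0.93 in rats 1 to 4, with a mean of 0.50 ± 0.31 (95% interval -0.27 to 1.27, adjusted p = 0.374). It was 0.83 without rat 1 and 0.21 without rat 2, neither of them called (adjusted p = 0.107 and 0.770).

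**Figure D2:**
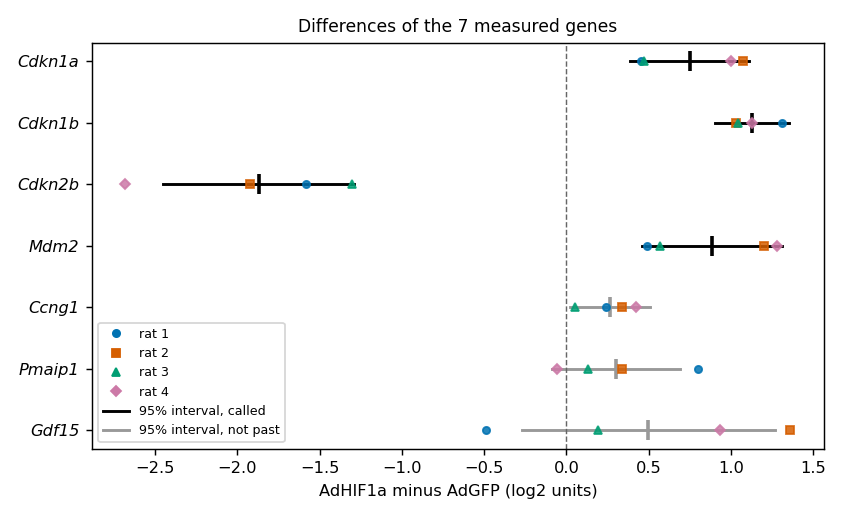
Differences between the AdHIF1a and the AdGFP well (horizontal axis, log2 units) for the 7 measured genes (vertical axis). Coloured points are the 4 rats, ticks the means and bars the 95% intervals from limma, black where the gene was called. Cdkn1b is tight around 1.13, Cdkn1a runs from 0.45 to 1.07 and Mdm2 from 0.49 to 1.28, and Gdf15 runs from -0.49 to 1.36.

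The question put to these genes was whether Cdkn1a and Mdm2 stood apart from the other p53 targets and the other CDK inhibitors. For each rat the difference of one gene was subtracted from that of another, for 11 pairs, and tested with an exact two-sided sign-flip permutation test over the 4 rats. That test cannot give a p below 0.125, with or without Benjamini-Hochberg adjustment over the 11 pairs, so no pair could pass. The smallest adjusted p found was 0.275. Probe sets also differ in how steeply their signal follows RNA, so these values compare differences in signal and not amounts of RNA.

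Cdkn1a rose by 0.49 ± 0.22 log2 units more than Ccng1 (SD, 4 rats, 95% interval 0.13 to 0.84, larger in 4 of 4 rats, exact p = 0.125), and Mdm2 by 0.62 ± 0.30 more (0.15 to 1.09, 4 of 4 rats, exact p = 0.125). Against Pmaip1, the excess was 0.45 for Cdkn1a (interval -0.52 to 1.41, larger in 3 of 4 rats) and 0.58 for Mdm2 (-0.53 to 1.70, 3 of 4). Against Gdf15 it was 0.25 for Cdkn1a (-0.57 to 1.07, 3 of 4) and 0.39 for Mdm2 (-0.35 to 1.13, 3 of 4). A separation from these targets in every rat was thus seen for Ccng1, and not for Pmaip1 or Gdf15.

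Set against the CDK inhibitors, Cdkn1a and Cdkn2b were parted by 2.62 ± 0.88 (SD, interval 1.21 to 4.02, 4 of 4 rats, exact p = 0.125), and Mdm2 and Cdkn2b by 2.76 ± 0.97 (1.21 to 4.30, 4 of 4 rats, exact p = 0.125). Cdkn1b, however, rose at least as far as Cdkn1a in 3 of 4 rats, and the difference between them was -0.38 (interval -1.03 to 0.27). Mdm2 and Cdkn1b differed by -0.24 (interval -1.02 to 0.53), with Mdm2 larger in 2 of 4 rats. The values of Cdkn1a and Mdm2 themselves lay close together, with Cdkn1a lower by 0.04, 0.13, 0.10 and 0.28 in rats 1 to 4.

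Between rats, the variation of several of these genes lay in the control wells. The SD over the 4 AdGFP wells was 6.25 times that over the AdHIF1a wells for Cdkn1a, 7.80 times for Ccng1, 5.87 times for Gdf15 and 2.30 times for Mdm2. Over all genes the median of this ratio was 0.90, and ratios at least as high were found in 0.683%, 0.374%, 0.831% and 9.52% of genes. Cdkn1b, Cdkn2b and Pmaip1 had ratios under 1, of 0.55, 0.76 and 0.67. The pattern was noticed in these data, and an SD over 4 wells is itself imprecise. In the AdGFP wells, Cdkn1a, Mdm2 and Gdf15 shared 1 order of the upper rats, with rat 1 highest and rat 3 next, while Ccng1 was highest in rat 3. The medians of whole AdGFP arrays had the same upper order, at 5.13, 5.00, 5.07 and 5.04 in rats 1 to 4. The medians of the AdHIF1a arrays were 5.02, 5.19, 5.16 and 5.20 in rats 1 to 4. A median does not show how many other genes share the order. A link between the order of these genes and that of the medians was not tested.

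**Figure D3:**
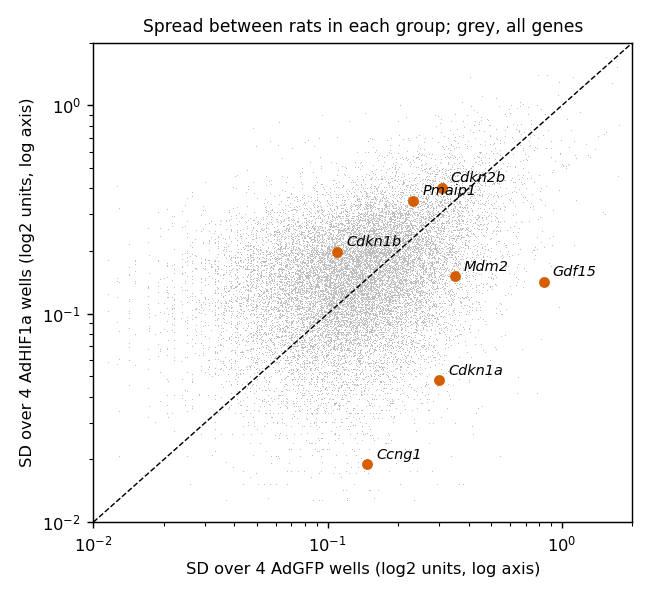
SD over the 4 AdHIF1a wells (vertical, log axis, log2 units) against the SD over the 4 AdGFP wells (horizontal, log axis, log2 units) for all genes in grey and the 7 measured genes in orange; 35 genes fall outside the axes. Points below the dashed line of equality varied more in the control wells, and Ccng1, Cdkn1a and Gdf15 lie far below it.

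The p53 targets outside the set went both ways. Of 30 further targets listed, 26 were measured, and 7 rose, 2 fell and 17 were not called, beside 5.68% and 7.77% of all genes. Their median difference was 0.16, against -0.005 for all genes. Plk3, a stress-activated polo-like kinase, rose by 1.02 ± 0.09, and Plk2, a related kinase that p53 induces, by 1.62 ± 0.24, the largest step in the list. Ddit4, an inhibitor of mTORC1 that is also a classic HIF target, rose by 1.44 ± 0.13. Polk, a DNA polymerase that copies past lesions, rose by 0.87 ± 0.11 and Phlda3, a p53-induced repressor of Akt, by 0.80 ± 0.11. The 2 other higher genes, named after their values were seen, were Aen, an apoptosis-enhancing nuclease (0.78 ± 0.13), and Triap1, an inhibitor of apoptosis (0.47 ± 0.11).

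The 2 lower p53 targets, also named after their values were seen, were Sesn1, a stress-induced inhibitor of mTORC1 (-0.94 ± 0.17, adjusted p = 0.0237), and Perp, a protein of desmosomes and apoptosis (-0.66 ± 0.13, adjusted p = 0.0320). The death receptor gene Fas differed by 0.44 ± 0.15 (adjusted p = 0.128) and Pidd1, a scaffold of caspase activation, by 0.52 ± 0.14 (adjusted p = 0.0670), and Pidd1 was called higher in 6 of 10 alternative settings of the fit. Plk3 and Ddit4 were called without any one rat. The others were each lost without rat 2 and without rat 4, among them Triap1 and Perp with any rat left out, and Triap1 was also not called with median centring. With rats 1 to 4 left out in turn, 6, 2, 6 and 2 genes were higher and 1, 0, 0 and 0 lower.

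**Figure D4:**
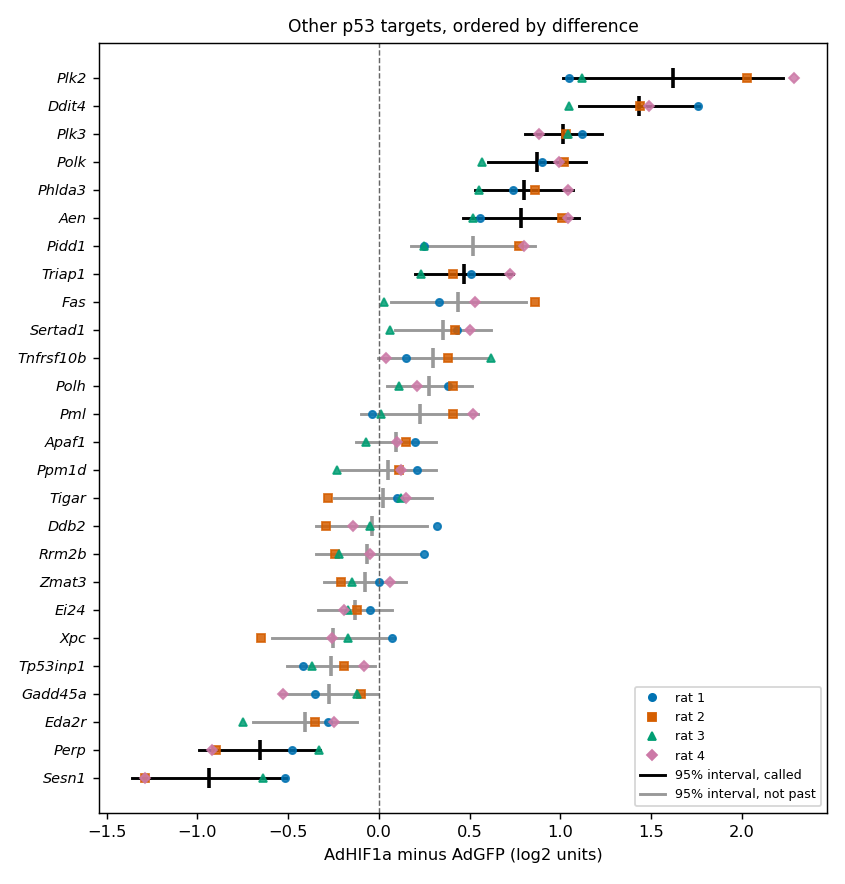
Differences between the AdHIF1a and the AdGFP well (horizontal axis, log2 units) for the 26 measured p53 targets outside the set (vertical axis), from Plk2 at 1.62 to Sesn1 at -0.94. Coloured points are the 4 rats, ticks the means and bars the 95% intervals from limma, black where the gene was called.

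Of 12 measured regulators of p53, 1 was higher and 1 lower, a share near the 5.68% and 7.77% of all genes. At an unadjusted p under 0.05 in limma, 5 were higher and 1 lower. At least 4572 of all 18166 genes were under 0.05 in either direction. Chek1, a kinase of the replication checkpoint that phosphorylates p53, rose by 1.01 ± 0.14 from a low signal of 5.73 (adjusted p = 0.0112), and Hipk2, a kinase that turns p53 towards apoptosis, fell by 0.85 ± 0.14 (adjusted p = 0.0189). The median difference of the list was 0.08. Both calls were lost without rat 2 or rat 4, and that of Hipk2 also without rat 1.

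Among the BCL2 family, the regulators of mitochondrial apoptosis to which Pmaip1, Bbc3 and Bax belong, 4 of 12 measured genes were higher and 2 lower, beside 5.68% and 7.77% of all genes, with a median difference of 0.14. The pro-apoptotic Bnip3l, a mitophagy receptor and HIF target (0.68 ± 0.08), Bid (0.68 ± 0.11) and Bcl2l11, which encodes Bim (0.52 ± 0.11, named after its value was seen), rose, and so did the anti-apoptotic Bcl2l2 (0.89 ± 0.20). The anti-apoptotic Bcl2 fell by 0.61 ± 0.10 and the pro-apoptotic Bik by 0.75 ± 0.13. Genes on both sides of the balance thus moved in both directions. Without rat 2 no member of the list was called, and without rat 3 or rat 4 the counts were 1 higher and 0 lower. Of the 2443 genes called in all, 559, 1092 and 625 stayed called without rats 2, 3 and 4. Bcl2l2 was not called with quantile normalization, nor Bcl2l11 with median centring.

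The 16 measured genes listed as G1 genes, the machinery around the CDK inhibitors, were cyclins and their kinases, the RB family, E2F factors and a phosphatase. Of these, 1 was higher and 1 lower, again a share near the 5.68% and 7.77% of all genes. At an unadjusted p under 0.05 in limma, 5 were higher and 3 lower. At least 4572 of all 18166 genes were under 0.05 in either direction. Cdk2, the kinase that p21 and p27 bind, rose by 0.55 ± 0.10 (adjusted p = 0.0253). Ccna2, cyclin A2, which is in the list but is not a G1 cyclin, fell by 1.63 ± 0.32 to a signal of 5.59 (adjusted p = 0.0279). The median difference was -0.004. Both calls were lost without rat 2, 3 or 4, and that of Cdk2 with median centring.

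The integrated stress response genes, which include known inducers and companions of Gdf15, were higher for 8 of 11 measured genes and lower for 0 by limma (0 lower also at an unadjusted p under 0.05), beside 5.68% and 7.77% of all genes, with a median difference of 0.79. Ddit4 is counted here and among the p53 targets. Vldlr, a lipoprotein receptor that is also a HIF target, rose by 2.83 ± 0.11, Trib3, a pseudokinase induced by ATF4, by 1.77 ± 0.09, and Atf3, a stress-induced transcription factor, by 0.95 ± 0.11. Ddit3, which encodes CHOP, rose by 0.79 ± 0.16 (named after its value was seen), and its call was lost without rat 1, 2 or 4. Atf4, the central factor of the response, differed by 0.39 ± 0.10 (adjusted p = 0.0559), and it was called higher in 8 of 10 alternative settings of the fit. Vldlr, Trib3, Atf3 and Ddit4 were called without any one rat, and the count of higher genes was 6, 4, 6 and 5 without rats 1 to 4.

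**Figure D5:**
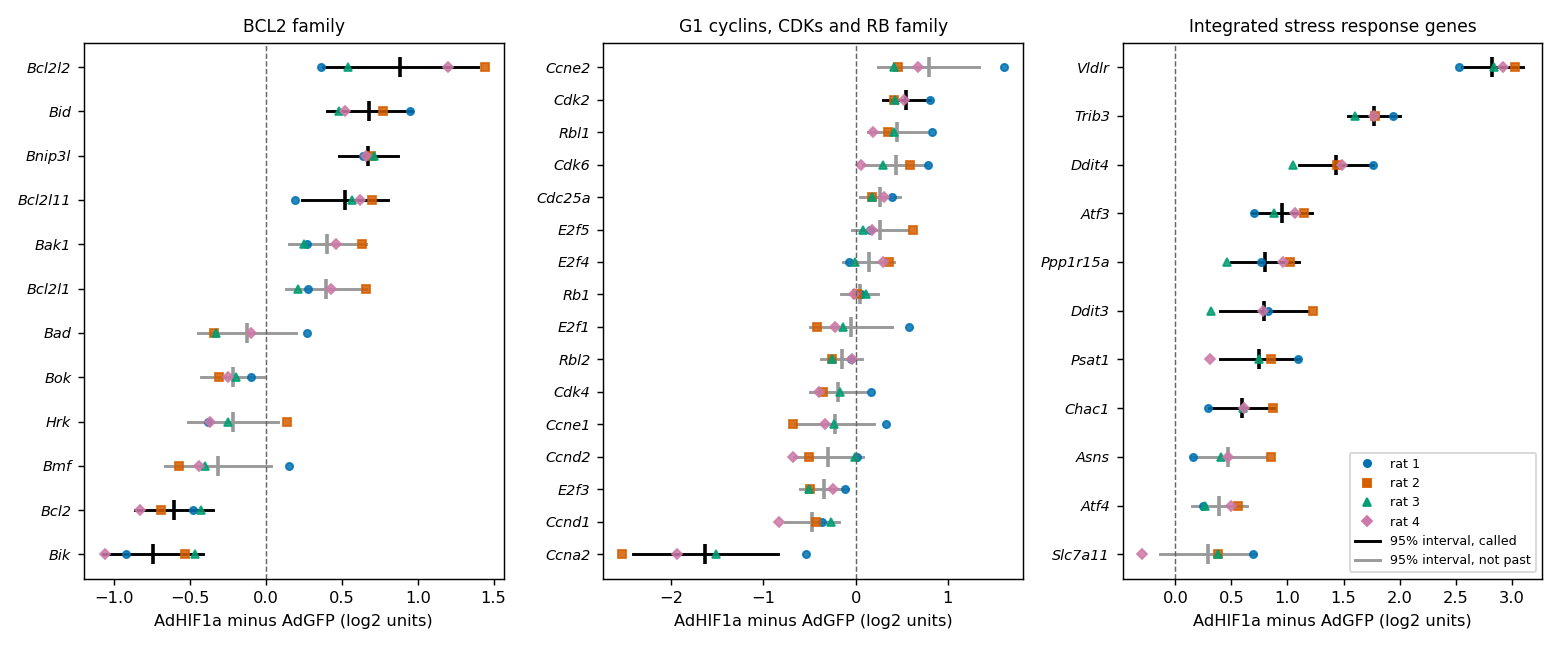
Differences between the AdHIF1a and the AdGFP well (horizontal axes, log2 units) for the measured genes of the BCL2 family, of the G1 cyclins, their kinases and the RB family, and of the integrated stress response (vertical axes). The second of these lists also holds E2F factors and a phosphatase. Coloured points are the 4 rats, ticks the means and bars the 95% intervals from limma, black where the gene was called; the horizontal scales differ between panels.

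The genes whose pattern over the 8 arrays was most like that of Cdkn1a, by Pearson correlation of values centred on each rat, were Dclre1c, Atf4, Dnajb9, Map2k7 and Sh2b2, each at 0.999. For Mdm2 they were Ist1, Mark2, Ercc4, Zfp335 and Zfp800, all at 0.999 or higher after rounding. With 4 pairs of wells such a value says only that the 4 differences were in nearly the same proportion, and 113 genes reached 0.99 with Cdkn1a and 118 with Mdm2. Of these 10 genes, Dclre1c (0.53) and Sh2b2 (0.63) were called. Both lost the call without rat 2, 3 or 4, and Dclre1c also without rat 1 and with median centring. The correlation between Cdkn1a and Mdm2 themselves was 0.998. That of Cdkn1a was 0.963 with Ccng1, 0.912 with Cdkn1b, 0.813 with Gdf15, 0.513 with Pmaip1 and -0.974 with Cdkn2b.

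Markers of other cells in the wells were looked at beside these results. In bulk RNA, fewer cells of a type and less RNA per cell cannot be told apart. The counts of markers stand beside 5.68% of all genes called higher and 7.77% called lower. At least 4572 of all 18166 genes had an unadjusted p under 0.05 in limma. Of 9 macrophage markers, 0 were higher and 1 was lower, Adgre1, by 0.54 ± 0.12 at a signal near the floor (adjusted p = 0.0434, with the call lost without rat 2, 3 or 4, without the block, and with quantile normalization or median centring). At an unadjusted p under 0.05, 0 were higher and 5 lower, and Mrc1 differed by -0.82 (adjusted p = 0.0586) and was called lower in 6 of 10 alternative settings. Their mean level ran from 6.67 to 7.38 in the AdGFP wells and from 6.02 to 7.09 in the AdHIF1a wells. Of 7 fibroblast and smooth muscle markers 1 was lower, Tagln, by 2.35 ± 0.23 (adjusted p = 0.00484), and their mean level was 5.24 to 5.50 in the AdGFP and 4.86 to 5.11 in the AdHIF1a wells. The fibroblast collagen genes Col1a1 and Col1a2 gave 5.86 and 5.01 in the AdGFP wells. Of 4 endothelial and 5 lymphocyte markers limma called 0 in either direction, with 0 and 1 at an unadjusted p under 0.05, and with mean levels of 4.31 to 4.54 and 5.11 to 5.51 over both groups. Of 3 ciliated and club cell markers, Tppp3 fell by 1.23 ± 0.19, with the call lost without rat 2 or rat 4. Of 9 ATII markers, 2 were higher, Sftpa1 (0.89 ± 0.10) and Sftpb (0.69 ± 0.11). The 3 lower ones were Napsa (-1.52 ± 0.18), Lamp3 (-0.78 ± 0.13) and Nkx2-1 (-0.44 ± 0.08). The call of Napsa was lost without rat 2, and those of Sftpb and Lamp3 without rat 2, 3 or 4. That of Sftpb was also lost without the block and with a random block. The part of any of these in the differences of the p53 target and CDK inhibitor genes was not tested.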

How the data were processed

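RNA from 8 wells of rat ATII cells, 4 per virus, was measured on Affymetrix arrays. The authors deposited 1 log2 signal per probe set and array, written to 2 decimals, and the submitters' processing notes name Affymetrix Expression Console. Its algorithm and version, and a genome build, are not stated in those notes. That the signals are log2 follows from their range of 1.42 to 13.57, and upper quartiles between 7.62 and 7.68 show arrays on a common scale, on which a general change of all RNA would not be seen. No detection calls were used. The number of arrays limits the precision.

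Of 36685 probe sets, the platform annotation gave 1 symbol to 18511, several to 575 and none to 17599. Where a gene had several, the one with the highest mean signal was used, which left 18166 genes, 18058 of them with a gene identifier in RefSeq (GRCr8). limma 3.58.1 in R 4.3.3 (lmFit, eBayes) was fitted to all probe sets with rat as fixed block, and p-values were adjusted over the 18166 genes. It was tested on simulated data. Estimating the variance prior from all probe sets, rather than from the named genes, was chosen after seeing both counts, and the other is an alternative. The pairing comes from the series' design. Taken as deviations from the group mean over all genes, the 2 wells of 1 rat had correlations of 0.177 to 0.265, and wells of unlike rats -0.220 to 0.0766.

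The members and gene lists were chosen with earlier results of these data known. The genes named were all measured members, Hif1a, in each list up to 4 called genes with the smallest adjusted p and the gene with the largest difference (with no call, the 2 with the smallest p), and the 5 genes most like Cdkn1a and Mdm2. Cdkn2c, Cd68, Col1a1, Col1a2, Scgb1a1, Sftpc, Fas, Pidd1 and the genes so marked in the text were named after their values were seen. Chromosome positions and sequences come from RefSeq's tables. The alternatives are given in the closing section.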

Additional observations from a re-analysis of the deposited data

Results flagged for a closer look

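Each of 57 named genes was checked for a well far from the other 3 of its group (Dixon's test at the 95% level). Over 114 groups of 4 wells, 4 were found, where chance gives about 1 in 20. The AdHIF1a well of rat 3 gave 9.51 for Mdm2, with the other wells between 9.79 and 9.84. The AdGFP well of rat 3 gave 10.35 for Ddit4, with the others between 9.94 and 10. The AdGFP well of rat 1 gave 9.69 for Atf3, with the others between 8.85 and 8.97. The AdGFP well of rat 3 gave 3.76 for the T cell gene Cd3g, near the floor, with the others between 4.13 and 4.20.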

How the results depend on the processing

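The alternatives were no replicate block, a random block for the rat, quantile normalization, median centring, a filter on dim genes (at the median or the lower quartile), array weights, a trended and robust prior, a gene's probe sets averaged, the prior from the named genes alone (added after seeing the data) and the omission of each rat. Apart from the omission of rats, these 10 settings changed no call and no direction among the 7 genes. Adjusted p ran from 0.00623 to 0.0280 for Cdkn1a, 0.00666 to 0.0282 for Mdm2, 0.000285 to 0.00493 for Cdkn1b and 0.000661 to 0.00895 for Cdkn2b, with differences of 0.67 to 0.84, 0.80 to 0.99, 1.05 to 1.15 and -1.96 to -1.87. Without the replicate block, 1279 genes were higher and 1672 lower, which changed no call among the 7. Leaving out each rat in turn gave differences of 0.64 to 0.85 for Cdkn1a, 0.75 to 1.02 for Mdm2, 1.07 to 1.16 for Cdkn1b and -2.06 to -1.60 for Cdkn2b, with 315 to 775 genes higher and 246 to 1231 lower, 2 to 6 further p53 targets higher and 0 to 1 lower. By list, 0 to 1 p53 regulators were higher and 0 to 1 lower, 0 to 4 BCL2 genes higher and 0 to 2 lower, 0 to 2 G1 genes higher and 0 to 1 lower, and 4 to 6 stress response genes higher. Fewer pairs were tested in these fits. The exact sign-flip test gave p = 0.125, the smallest that 4 rats allow, for Cdkn1a (0.75), Mdm2 (0.89), Cdkn1b (1.13) and Cdkn2b (-1.87).

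Of the counts, 1032 higher genes became 635 with median centring and 1576 with the prior from the named genes alone. Median centring lowers the mean difference of every gene by 0.08 log2 units, with shifts that differ between the rats. An adjusted p under 0.01 left 349 higher and 307 lower, and a minimum of 1.5-fold 656 and 924. One further CDK inhibitor, Cdkn1c, was called lower with quantile normalization (count 1 instead of 0). The p53 regulators had 2 higher with quantile normalization, either filter, array weights, the trended prior or the prior from named genes. The G1 genes had 2 higher without the block or with a random block, 0 with median centring and 3 with the filter at the median or the prior from named genes, and 2 lower with either filter or the trended prior and 3 with array weights or the prior from named genes. The causes were not tested.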
